A study of Mus musculus with 14 samples.

Results

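Genes that act in germ cells and in meiosis, namely *Dazl*, *Ddx4*, *Sycp1*, *Sycp3*, *Hormad1*, *Mael*, *Asz1*, *Stk31*, *Tex101* and *Slc25a31*, were followed through RNA-seq libraries of mouse embryonic stem (ES) cells that differ in their sex chromosomes. They are a list of 10 of the 23298 genes in the deposited table, chosen with earlier results of these data known. Counts of called genes set beside shares of all genes below are therefore a description, not independent support. The 14 ES cell lines came from reciprocal crosses of C57BL/6J and CAST/EiJ mice, with BC lines from a C57BL/6J mother and a CAST/EiJ father and CB lines from the reverse cross. The BC XX, CB XX, BC XY and CB XY groups held 3 lines each, and the BC XO group held 2 lines, whose cells carry a lone X chromosome. Each line was grown from 1 blastocyst, in serum with the cytokine LIF on a layer of fibroblasts that no longer divide, and these feeder cells were depleted before RNA was taken. Every line was therefore F1 hybrid, undifferentiated and untreated, and the lines of a group come from separate embryos. DNA methylation was not among the values analysed here, so that silencing by methylation is background for these genes and was not examined.

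The promoters of these genes are rich in CpG and become methylated by the de novo enzymes Dnmt3a and Dnmt3b around implantation, and they stay methylated in body tissues. Methylation is erased again in primordial germ cells, where such genes are switched on for meiosis and for the defence against transposons by piRNAs, small RNAs bound by Piwi proteins. In ES cells a further layer of repression is carried by the PRC1.6 complex, whose subunits Mga, Max and E2f6 read E-box and E2F-like motifs. XX ES cells with both X chromosomes active are known for lower DNA methylation than XY cells.

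As a check of the labels, the Y-linked gene *Uty* ran from 945 to 2088 in CB XY 1 and the BC XY lines. The libraries labelled CB XY 2 and 3 had 19.6 and 45.4 instead, within the range of 12.8 to 195 in the XX lines. *Ddx3y* had 27 and 126 in those libraries, against 1084 to 2268 in the other XY lines. *Eif2s3y* and *Kdm5d* did not separate the XY from the XX lines and so check nothing. The BC XX lines held RNA of Y-linked genes too, with *Ddx3y* at 328, 486 and 1024. For the genes called and named below over all lines or in the CB cross, values without CB XY 2 and 3 are given too. Summed values of 14 fibroblast markers ran from 74435 to 141087 in the BC XX lines and from 4298 to 19562 in the other lines. The 8 ES cell markers summed to 72572 or more in every line. Taking the smallest step between values as 1 read, the lines held 11904363 to 69645663 reads, so that a gene at 3 reads had a value between 1.22 and 7.37.

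Sequences before the start sites of 6 of the genes are shown because the repressors above read motifs in such stretches. The capitals mark CACGTG, an E-box that reads the same on both strands, and TCCCGC, an E2F-like motif searched on both strands and printed as GCGGGA where it lies on the other strand. *Hormad1*, *Sycp1*, *Stk31* and *Dazl* differed between XX and XY lines, and *Ddx4* and *Sycp3*, which did not pass that test, are shown beside them. Each sequence is the 250 bases that end at the base before the start site given by RefSeq, 5′ to 3′ on the gene's strand on GRCm38.p6, and its windows matched the mm9 genome exactly. In mm9 they lie at chr3:95363349-95363598 (plus strand) for *Hormad1*, chr3:102740024-102740273 (minus) for *Sycp1*, chr6:49345288-49345537 (plus) for *Stk31*, chr17:50432946-50433195 (minus) for *Dazl*, chr13:113442519-113442768 (minus) for *Ddx4* and chr10:87922082-87922331 (plus) for *Sycp3*.
Hormad1: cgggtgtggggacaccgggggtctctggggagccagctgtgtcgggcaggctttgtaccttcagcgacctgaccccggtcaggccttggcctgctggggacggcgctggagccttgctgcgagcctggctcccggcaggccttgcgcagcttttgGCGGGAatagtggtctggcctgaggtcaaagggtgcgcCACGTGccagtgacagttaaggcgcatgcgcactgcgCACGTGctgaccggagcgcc
Sycp1: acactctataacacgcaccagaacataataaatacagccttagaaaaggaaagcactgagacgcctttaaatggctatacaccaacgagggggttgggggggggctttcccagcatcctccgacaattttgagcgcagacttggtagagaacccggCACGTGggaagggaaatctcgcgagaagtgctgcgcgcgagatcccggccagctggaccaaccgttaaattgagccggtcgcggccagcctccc
Stk31: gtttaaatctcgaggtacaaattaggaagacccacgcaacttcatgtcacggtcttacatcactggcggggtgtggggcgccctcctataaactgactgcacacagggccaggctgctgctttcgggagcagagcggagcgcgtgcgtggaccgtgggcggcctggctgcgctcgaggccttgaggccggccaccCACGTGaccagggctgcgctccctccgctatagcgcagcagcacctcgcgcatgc
Dazl: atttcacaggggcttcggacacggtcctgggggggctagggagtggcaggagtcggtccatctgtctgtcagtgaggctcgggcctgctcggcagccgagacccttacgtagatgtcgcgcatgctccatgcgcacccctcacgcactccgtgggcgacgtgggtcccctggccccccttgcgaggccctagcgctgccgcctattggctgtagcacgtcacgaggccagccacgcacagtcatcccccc
Ddx4: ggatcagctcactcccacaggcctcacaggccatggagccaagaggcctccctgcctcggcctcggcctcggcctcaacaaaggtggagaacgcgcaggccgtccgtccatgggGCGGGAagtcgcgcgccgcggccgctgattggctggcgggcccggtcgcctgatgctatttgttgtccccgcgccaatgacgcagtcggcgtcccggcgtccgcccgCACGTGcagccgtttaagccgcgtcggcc
Sycp3: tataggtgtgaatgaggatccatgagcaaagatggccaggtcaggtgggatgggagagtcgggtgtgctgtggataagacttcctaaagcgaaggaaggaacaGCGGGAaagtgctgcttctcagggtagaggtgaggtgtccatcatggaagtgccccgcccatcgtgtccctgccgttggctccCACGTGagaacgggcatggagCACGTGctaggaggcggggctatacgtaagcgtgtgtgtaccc

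In windows from 250 bases before to 50 bases after the start site, all 10 genes were CpG-rich. Their first windows held a median of 23 CpG dinucleotides, from 15 in *Sycp3* to 38 in *Ddx4*, against a median of 7 over 32851 windows of all genes. CACGTG was present in 7 of the 10 genes, in *Hormad1* and *Sycp3* at 2 places each, and in 7.2% of all windows. Among all windows with at least 15 CpG, 11.3% held it. TCCCGC on either strand was present in 6 of the 10 genes and in 20% of all windows, or 45.4% of those with at least 15 CpG, and both motifs occurred together in the same 6 genes and in 2.0% of all windows. The share with both among windows with at least 15 CpG was not counted, so that the 2.0% is not matched for CpG content. In *Hormad1* the E-boxes began 57 and 20 bases before the start site, and in *Sycp3* they began 64 and 43 bases before it. *Dazl*, *Asz1* and *Tex101* had no CACGTG in these windows. Genes with both motifs included *Hormad1* and *Sycp1*, which were higher in XX lines, and also *Ddx4* and *Sycp3*, which did not pass the test.

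RNA of most of these genes was detected in every line, as was that of many genes in the table. Of all 23298 genes, 14951 to 15434 had a value of 10 or more in a line. The share of all genes above 3 reads in every line was not counted. Of the 10 genes, 8 were above 3 reads in all 14 lines, and the exceptions were *Tex101* and *Asz1*, each at or under 3 reads in 7 lines, where a value within 0.1 of a read was taken as whole. Per kilobase of exon, the median levels over the 14 lines were 255 for *Hormad1*, 245 for *Dazl*, 209 for *Sycp3* and 182 for *Ddx4*. *Mael*, *Stk31* and *Sycp1* followed close together at 71.5, 68.7 and 67.4, then *Slc25a31* at 14.8, *Tex101* at 2.75 and *Asz1* at 1.66. The steps between neighbours among the first 4, among the next 3 and between the last pair were smaller than the spread of each gene over its own lines. From the lowest to the highest line the value ranged 18.1-fold for *Dazl*, 24.7-fold for *Sycp1* and 10.7-fold for *Hormad1* and *Mael*, but 2.21-fold for *Ddx4*. These are values of whole cultures, in which more RNA per cell and more cells with the RNA cannot be told apart.

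**Figure D1:**
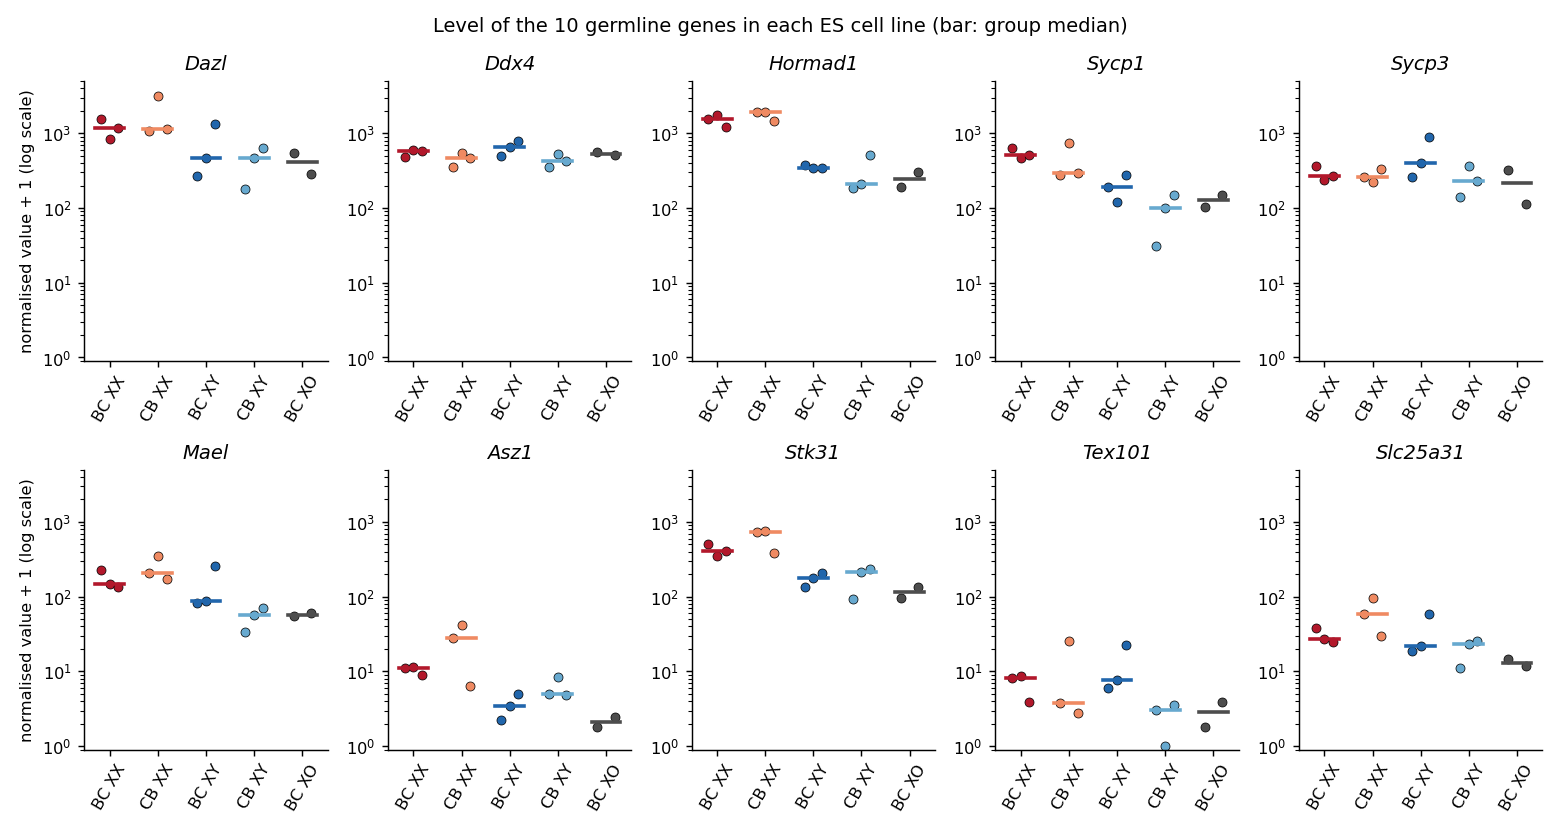
Normalised value plus 1 of each of the 10 genes (vertical, log scale) in each of the 14 lines, 1 point per line, by group, with a bar at the group median. The XX lines of *Hormad1*, *Sycp1* and *Stk31* lie above every XY and XO line, while the groups of *Ddx4* and *Sycp3* overlap.

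To ask which of the genes differed with the sex chromosomes, the 6 XX lines were first compared with the 6 XY lines of both crosses, using limma with Benjamini-Hochberg adjustment over 15311 genes. *Hormad1*, *Sycp1*, *Stk31* and *Dazl* were higher in XX lines at an adjusted p under 0.05, and none was lower. These were 4 of the 8 genes that passed the filter on low values, where 5.21% of all tested genes were called in either direction and 3.21% were called higher in XX lines. The median log2 difference of the 8 genes was 1.39, against -0.03 for all genes tested. In 3 of the genes every XX line lay above every XY line, and this held for 2.29% of all genes tested. *Asz1* and *Tex101* did not pass the filter in this comparison. Log2 differences are of log2(value + 5), which understates the change of genes with low values.

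**Figure D2:**
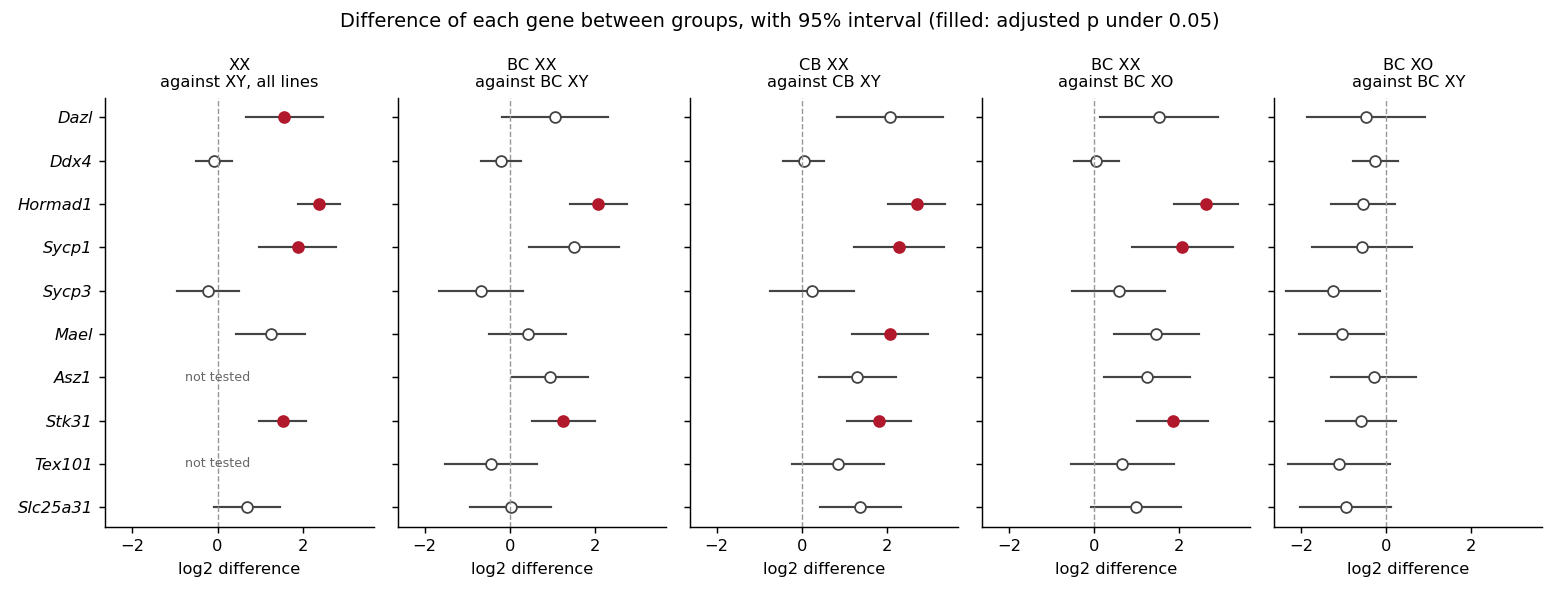
Log2 difference of each gene in 5 comparisons (horizontal, difference of mean log2(value + 5), first group minus second), with its 95% interval from limma. Filled points passed an adjusted p of 0.05. *Hormad1*, *Sycp1* and *Stk31* lie right of 0 in the 4 comparisons with XX lines, and all 10 genes lie left of 0 for BC XO against BC XY.

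Of the genes of the meiotic chromosome axis and the synaptonemal complex, which hold homologous chromosomes together, *Hormad1* and *Sycp1* were higher in XX lines and *Sycp3* was not called. *Hormad1* (chr3:95363599-95391593, plus strand, ENSMUSG00000028109.8) encodes a HORMA domain protein that marks unsynapsed chromosome axes. Its values were 1569, 1774 and 1215 in the BC XX lines and 1917, 1940 and 1477 in the CB XX lines. The BC XY lines had 371, 338 and 343, the CB XY lines 182, 206 and 511, and the BC XO lines 191 and 299. Every XX line was above every other line. The log2 difference between all XX and XY lines was 2.39 (SE 0.23, limma adjusted p = 0.000395), and the mean values were 1649 ± 282 (SD, n = 6) and 325 ± 120 (SD, n = 6). The call was kept under each alternative run and without each of the 12 lines in turn, and without CB XY 2 and CB XY 3 together the difference was 2.43 (limma adjusted p = 0.000706).

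*Sycp1* (chr3:102622422-102740023, minus strand, ENSMUSG00000027855.8) encodes the transverse filament of the synaptonemal complex. It had values of 643, 471 and 507 in the BC XX lines and of 279, 749 and 291 in the CB XX lines. The BC XY lines had 189, 121 and 278, the CB XY lines 30.3, 98.2 and 149, and the BC XO lines 102 and 149. XX and XY lines met without overlapping, as CB XX 1 at 279 stood next to BC XY 3 at 278. The log2 difference was 1.89 (SE 0.42, limma adjusted p = 0.0208). It did not pass 0.05 without BC XX 1 (limma adjusted p = 0.0541), without CB XY 2 and CB XY 3 together (0.0799) or with the fibroblast level as a covariate (0.076), while the difference stayed between 1.78 and 1.89.

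*Sycp3* (chr10:87922314-87935981, plus strand, ENSMUSG00000020059.3) builds the lateral elements of the same complex. It overlaps *Chpt1* on the other strand, and whether the counting used strand is not given in the sources used here. Its values were 359, 238 and 269 in BC XX lines and 256, 223 and 335 in CB XX lines. They were 260, 402 and 895 in BC XY lines, 139, 363 and 230 in CB XY lines, and 317 and 111 in BC XO lines. The groups overlapped, and BC XY 3 was far above every other line. The log2 difference of XX against XY lines was -0.22 (95% interval -0.94 to 0.51, limma adjusted p = 0.733).

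The RNA-binding proteins Dazl and Ddx4, which control translation in germ cells and mark them from an early stage, gave different results. *Dazl* (chr17:50418719-50432924, minus strand, ENSMUSG00000010592.7) had 1562, 843 and 1169 in the BC XX lines and 1086, 3178 and 1143 in the CB XX lines. It had 267, 469 and 1337 in the BC XY lines, 176, 459 and 632 in the CB XY lines, and 550 and 285 in the BC XO lines. All XX lines were above the XY lines apart from BC XY 3, which exceeded 4 of the 6 XX lines, and CB XX 2 was the highest of the 14 lines. The log2 difference was 1.57 (SE 0.42, limma adjusted p = 0.0467). The call was lost on leaving out any of 10 of the 12 lines (limma adjusted p 0.0535 to 0.0992), all but BC XY 3 and CB XX 1. It was also lost with the chromosome level removed (limma adjusted p = 0.0528) and with no filter on low values (limma adjusted p = 0.0694). Without CB XY 2 and CB XY 3 together the difference was 1.69 (limma adjusted p = 0.11).

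*Ddx4* (chr13:113388541-113442518, minus strand, ENSMUSG00000021758.7), the germ cell RNA helicase also called Vasa, had 485, 590 and 581 in BC XX lines and 354, 546 and 459 in CB XX lines. It had 492, 658 and 780 in BC XY lines, 357, 533 and 426 in CB XY lines, and 554 and 504 in BC XO lines. All 5 groups overlapped with another. The log2 difference of XX against XY lines was -0.08 (95% interval -0.50 to 0.34, limma adjusted p = 0.839).

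In the piRNA pathway, whose factors gather in the nuage around germ cell nuclei, *Stk31* was higher in XX lines, *Mael* missed the threshold over all lines unless a covariate was added, and *Asz1* was too low to pass the filter. *Stk31* (chr6:49345603-49419500, plus strand, ENSMUSG00000023403.8), a Tudor and kinase domain protein, overlaps the pseudogene *Gm17060* on the other strand. Its values were 502, 347 and 410 in the BC XX lines and 738, 746 and 387 in the CB XX lines. They were 135, 175 and 209 in the BC XY lines, 92.9, 214 and 231 in the CB XY lines, and 94.1 and 132 in the BC XO lines. Every XX line lay above every XY and XO line. The log2 difference was 1.54 (SE 0.26, limma adjusted p = 0.00443), and it passed 0.05 on leaving out each of the 12 lines in turn. Genes of chromosome 6 were shifted as a whole by 0.27, 0.23 and 0.23 (median log2 deviation) in CB XY 2, CB XY 3 and CB XX 1, against -0.17 to 0.14 in the other lines, and with the chromosome level removed *Stk31* was still called. It had 1.73 without CB XY 2 and 3 together (limma adjusted p = 0.0105).

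*Mael* (chr1:168131516-168168875, minus strand, ENSMUSG00000040629.3), a nuage protein needed for transposon silencing, had 226, 146 and 135 in BC XX lines and 205, 346 and 169 in CB XX lines. The BC XY lines had 81.2, 86.5 and 253, the CB XY lines 32.3, 56.5 and 70.1, and the BC XO lines 53.4 and 59.8. BC XY 3, at 253, lay among the XX lines, and the other 5 XY lines lay below all of them. The log2 difference was 1.25 (SE 0.38, limma adjusted p = 0.0737), and it was 1.57 without BC XY 3 (limma adjusted p = 0.00988). It also passed 0.05 with cross as a covariate (1.25, limma adjusted p = 0.0454) and with the fibroblast level as one (1.69, limma adjusted p = 0.0454). It had 1.09 without CB XY 2 and 3 together (limma adjusted p = 0.238).

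*Asz1* (chr6:18000964-18059061, minus strand, ENSMUSG00000010796.5), an ankyrin repeat protein of the nuage between mitochondria, reached 10.1, 10.6 and 7.86 in BC XX lines and 27.0, 40.2 and 5.33 in CB XX lines. The XY lines ranged from 1.25 to 7.37 with a median of 3.96, and the BC XO lines had 0.798 and 1.42. Among XX lines CB XX 3 fell within the range of the XY lines, and 5 of the 6 XY lines and both XO lines were at or under 3 reads. Without the filter on low values, the log2 difference over all lines was 1.13 (SE 0.33, limma adjusted p = 0.0808).

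The remaining genes, for a mitochondrial carrier and a sperm surface protein, had low values throughout. *Slc25a31* (chr3:40512777-40529515, plus strand, ENSMUSG00000069041.6), the ADP/ATP carrier of the male germ line, had 37.5, 26.5 and 23.6 in BC XX lines and 58.3, 95 and 28.4 in CB XX lines. It had 17.5, 20.8 and 56.9 in BC XY lines, 10.1, 22.1 and 24.7 in CB XY lines and 13.6 and 10.7 in BC XO lines. XX and XY lines overlapped, with a log2 difference of 0.70 (SE 0.36, limma adjusted p = 0.261). *Tex101* (chr7:25453031-25457069, minus strand, ENSMUSG00000062773.5), a glycoprotein of the germ cell surface, had values of 24.4 in CB XX 2 and 21.4 in BC XY 3, and at most 7.73 in the other 12 lines, with 0 in CB XY 2. Its log2 difference without the filter was 0.20 (SE 0.41, limma adjusted p = 0.811).

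Because the crosses differ in the strain each X chromosome comes from, the sexes were also compared within each cross, in a model of 5 groups over 14 lines and 16261 genes. In the CB cross, *Hormad1* (log2 difference 2.70), *Sycp1* (2.27), *Mael* (2.07) and *Stk31* (1.81) were higher in XX lines, which is 4 of 10 genes where 2.11% of all genes were called higher and 3.57% were called in either direction. Their limma adjusted p-values were 0.00266, 0.0224, 0.017 and 0.0131 in that order. *Dazl* had the same difference as *Mael*, 2.07, with a larger error (SE 0.58 against 0.42) and a limma adjusted p of 0.0679. Genes of chromosome 1, where *Mael* lies, were shifted as a whole by 0.31 (median log2 deviation) in CB XX 1. The shift was -0.004 and -0.012 in CB XX 2 and 3, and -0.15, -0.15 and -0.10 in the CB XY lines. With the chromosome level removed *Mael* had 1.84 in this cross (limma adjusted p = 0.0486). *Asz1* passed the filter of this model only through XX lines, the groups where it is high, so that medians and counts of lines that do not overlap are given here and below without it. The other 9 differences were all positive, with a median of 1.81 against -0.02 for all genes, and in 6 of these 9 genes every CB XX line lay above every CB XY line (11.7% of all genes). Without CB XX 2, or without CB XY 1, *Hormad1* alone was called (limma adjusted p = 0.0161 or lower), and without CB XY 2 the adjusted p of *Sycp1* was 0.0531. Omitting CB XY 2 together with CB XY 3 leaves CB XY 1 as the lone XY line, which is then assumed to vary like the other groups. That fit gave 3.24 for *Hormad1* (limma adjusted p = 0.00128), 3.50 for *Sycp1* (0.0162) and 2.62 for *Stk31* (0.0175), all called. It gave 2.65 for *Mael* (limma adjusted p = 0.0629) and 3.13 for *Dazl* (0.0934).

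In the BC cross, *Hormad1* (log2 difference 2.08, limma adjusted p = 0.00294) and *Stk31* (1.26, limma adjusted p = 0.0476) were higher in XX lines. These are 2 of 10 genes, where 4.46% of all genes were called higher and 5.7% were called in either direction. *Sycp1* had 1.5 (limma adjusted p = 0.0888) and *Dazl* 1.06 (limma adjusted p = 0.3), and *Mael* and *Slc25a31* had 0.42 and 0.03. *Sycp3*, *Tex101* and *Ddx4* had values of -0.67, -0.44 and -0.20, each with an interval that includes 0. The median of the 9 genes other than *Asz1* was 0.42 against -0.04 for all genes, and in 3 of them every BC XX line lay above every BC XY line (14.6% of all genes). The call of *Stk31* was lost on leaving out any BC line, CB XY 2, CB XY 3 or CB XX 2 (limma adjusted p 0.0505 to 0.141).

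The BC XX lines are those with high fibroblast RNA, and 10 of the 14 fibroblast markers were called higher in them than in BC XY lines, with a median log2 difference of 2.53. With the fibroblast level as a covariate the BC differences were 1.79 for *Hormad1* (limma adjusted p = 0.268) and 2.10 for *Stk31* (limma adjusted p = 0.194), but all 3 BC XX lines had more fibroblast RNA than any other line, so that the group and the fibroblast level cannot be told apart there. Over all XX and XY lines all 14 markers had higher means in XX lines, with a median log2 difference of 1.65 beside 1.39 for the 8 germline genes. *Thy1*, a surface glycoprotein, was the 1 marker called there (1.51, limma adjusted p = 0.0476), and it had 1.45 without CB XY 2 and 3 (limma adjusted p = 0.148). With the fibroblast level as a covariate, the differences over all lines were 2.45 for *Hormad1*, 1.97 for *Dazl* and 1.95 for *Stk31*, all called by limma, and 1.78 for *Sycp1*, which was not. In the CB cross 0 of the 14 fibroblast markers were called by limma, where 3.57% of all genes were called in either direction. Of all genes 3032 had a limma unadjusted p under 0.05 there, and the median of the markers was 0.39. With the same covariate in the CB cross, *Hormad1* had 2.66, *Sycp1* 2.28, *Mael* 2.17 and *Stk31* 1.91, all called by limma, and *Dazl* had 2.18 (limma adjusted p = 0.0426).

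Whether the sex difference itself changed with the cross was tested as an interaction. None of the 10 genes was called by limma, where 0.0738% of all genes were and 1471 had an unadjusted p under 0.05. All 10 estimates were negative, which means a larger excess in XX lines of the CB cross, with a median of -0.83 (-0.90 without *Asz1*) against -0.02 for all genes. *Mael* had -1.65 (SE 0.59, limma unadjusted p = 0.0141, adjusted p = 0.398). The median moved to -0.41 without CB XY 1, to -0.42 without BC XY 3 and to -0.51 without CB XX 2, with 1 positive estimate in the last case. In the fits without BC XY 3 and without CB XX 2, *Tex101* did not pass the filter. Those medians therefore cover the other genes, *Asz1* included. With the fibroblast level as a covariate it was -0.28, with 3 positive estimates. Between the crosses, averaged over XX and XY lines, 0 of the 10 genes were called by limma where 16% of all genes were, and *Sycp1* had 0.82 (SE 0.35, adjusted p = 0.117) and *Ddx4* 0.42 (SE 0.16, adjusted p = 0.0798), both with higher means in BC lines.

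The XO lines carry 1 X chromosome and no Y, and so allow XX to be set against a lone X within the BC cross. *Hormad1* (log2 difference 2.63, limma adjusted p = 0.00646), *Stk31* (1.85, limma adjusted p = 0.0231) and *Sycp1* (2.07, limma adjusted p = 0.0485) were higher in BC XX than in BC XO lines, 3 of 10 genes where 3.06% of all genes were called higher and 4.66% in either direction. The 9 differences other than that of *Asz1* were all positive, with a median of 1.46 against -0.02 for all genes, and in 7 of these genes every BC XX line lay above both XO lines (23.6% of all genes). *Tex101* is among the 7 only by 2.95 in BC XX 3, at or under 3 reads, against 2.85 in BC XO 2, which reads this few do not separate. Without BC XO 1, *Hormad1* had 2.31 (limma adjusted p = 0.132) and none of the 10 was called, and without BC XO 2 *Hormad1* alone was called. *Stk31* was also lost without BC XX 3 (limma adjusted p = 0.0747), and *Sycp1* without any of the 3 BC XX lines, BC XY 1, BC XY 2 or CB XY 2 (limma adjusted p 0.0526 to 0.135) and with the chromosome level removed (limma adjusted p = 0.0599). With no filter on low values *Sycp1* was lost too (limma adjusted p = 0.0816). Its call was kept in 4 of the 10 alternatives other than the omission of single lines. With the fibroblast level as a covariate none of the 10 was called, and the differences were 2.40 for *Hormad1* (limma adjusted p = 0.074), 2.49 for *Stk31* (0.0616) and 2.10 for *Sycp1* (0.321). In these lines 6 of the 14 fibroblast markers were called higher in BC XX than in BC XO lines.

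Between BC XO and BC XY lines none of the 10 genes was called by limma, where 1 gene was among all 16261 (0.00615%). *Sycp3* had -1.25 and *Mael* -1.04, each with a limma adjusted p of 0.999 and among 242 genes with an unadjusted p under 0.05. The 9 estimates other than that of *Asz1* were all negative, with a median log2 difference of -0.59 against 0.01 for all genes. In 5 genes, *Hormad1*, *Mael*, *Stk31*, *Tex101* and *Slc25a31*, both XO lines lay below all 3 BC XY lines, and this held for 8.58% of all genes. For *Tex101* this rests on values near the read floor, 0.798 and 2.85 in XO lines and 5 in BC XY 1. Without BC XY 3, *Tex101* did not pass the filter, and the 9 genes then tested, *Asz1* included, are not the same 9. Their median was -0.45, and 8 of 9 estimates were negative. The 3 comparisons among BC XX, BC XY and BC XO lines share lines, and their values are set side by side without being counted as separate evidence.

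Lines of the same group differed widely, and several genes were high in the same lines. Levels were standardised per gene over the 14 lines and averaged over the 10 genes. *Asz1* and *Tex101*, each at or under 3 reads in 7 lines, count in this mean like the others, with 2.29 and 2.12 SD in CB XX 2. CB XX 2 stood highest at 1.42 SD, followed by BC XY 3 at 0.85, and CB XY 1 was lowest at -1.38, with the XO lines at -0.73 and -0.88. CB XX 2 was the highest XX line for 8 of the 10 genes, the exceptions being *Ddx4* and *Sycp3*. BC XY 3 was the highest XY line for 7 genes, among them *Dazl*, *Sycp3* and *Mael*, but not for *Hormad1* or *Stk31*, for which CB XY 3 was highest. CB XY 1, the CB XY line with Y-linked RNA, was the lowest XY line for 8 genes. What share of all genes was highest or lowest in these lines was not counted, so that these counts describe the 10 genes only.

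**Figure D3:**
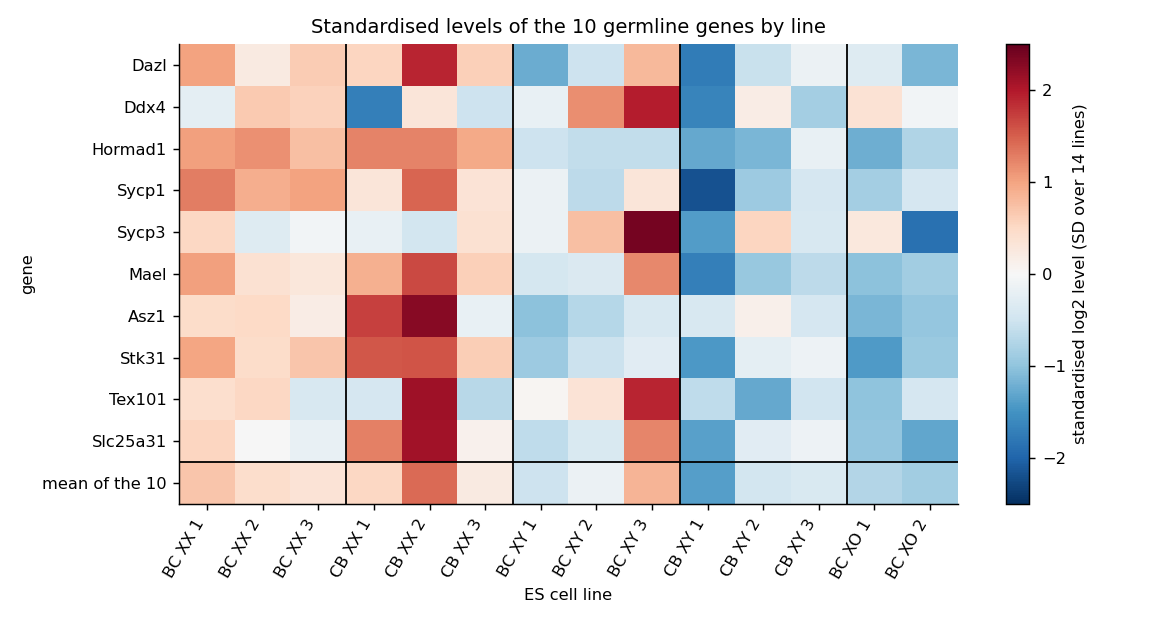
Level of each gene (rows) in each line (columns), standardised over the 14 lines on the log2 scale, red above and blue below the gene's mean, with the mean of the 10 genes in the last row. The row of means is highest in CB XX 2 (1.42) and BC XY 3 (0.85) and lowest in CB XY 1 (-1.38), and the rows of *Ddx4* and *Sycp3* lack the block of red over the XX lines.

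Likeness between genes was measured as the root-mean-square difference of these standardised profiles over 14 lines, as a description. Among the 10 genes, *Hormad1* and *Stk31* were closest at 0.38, then *Dazl* and *Mael* at 0.39 and *Mael* and *Slc25a31* at 0.40. *Ddx4* was nearest to *Sycp3* at 0.83 and at 0.95 or more from each of the others. Outside the list, the genes nearest to *Dazl* were *4930506M07Rik* at 0.28, *Serpinb6c* at 0.29, *Lactb* at 0.30 and *Gkap1* and *Akap11* at 0.31. Nearest to the mean profile of the 10 were the X-linked *Nxt2* at 0.30 and, at 0.32 to 0.35, *Lactb*, the X-linked *Nxf2*, *Akap11* and *Zfp709*. *Nxf2*, a nuclear RNA export factor of germ cells, had 47.6, 33.4 and 37.3 in BC XX lines and 32.7, 81.6 and 23.1 in CB XX lines. In the XY lines it ran from 4.04 to 23.4, the highest being BC XY 3, and the XO lines had 3.19 and 4.27. Its highest line was CB XX 2, as for *Dazl*, *Mael* and *Sycp1*. Since *Nxf2* was picked by likeness to the mean of the 10 genes, this is no separate result.

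Other genes of the same processes were read from lists of 23 further meiosis genes and 18 further piRNA pathway genes in the table. Of 20 meiosis genes tested between all XX and XY lines, 4 were higher in XX lines and 0 lower by limma, where 3.21% of all genes were called higher and 5.21% in either direction. They were *Smc1b*, a meiotic cohesin, *Sohlh2*, a germ cell transcription factor, *Syce1*, a synaptonemal complex protein, and *Hormad2*, a relative of *Hormad1*. *Smc1b* had 794, 820 and 500 in BC XX lines and 1325, 1301 and 1063 in CB XX lines, against 86.2 to 467 in the 6 XY lines and 127 and 90.3 in XO lines. Its XX lines lay above every other line, with a log2 difference of 2.24 (SE 0.38, limma adjusted p = 0.00443). *Sohlh2* had 2.30 (limma adjusted p = 0.011), *Syce1* 1.51 (limma adjusted p = 0.0173) and *Hormad2* 1.13 (limma adjusted p = 0.0488). All 4 were called without CB XY 2 and 3 together, at 2.46, 2.67, 1.60 and 1.56 (limma adjusted p 0.0132, 0.0143, 0.0459 and 0.0074), but *Hormad2* on leaving out only 4 of the 12 lines in turn. The median of the 20 was 0.31 against 1.39 for the 8 germline genes tested, and 7 of the 20 were negative. In the model of 5 groups 21 meiosis genes were tested. Their median was 0.04 in the BC cross, with 9 negative, and 0.58 in the CB cross, with 6 negative. *Tex12*, among the 21, passed that filter only through CB XX lines.

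Of 18 piRNA pathway genes, *Fkbp6*, a cochaperone for piRNA loading (log2 difference 1.87, limma adjusted p = 0.0192), and *Piwil1*, a Piwi protein (1.54, limma adjusted p = 0.023), were higher in XX lines. *Tdrd5*, a Tudor protein of nuage, was lower at -1.08 (limma adjusted p = 0.0236), with 373, 435 and 319 in BC XY and 295, 427 and 325 in CB XY lines against 81.6 to 246 in XX lines. Without CB XY 2 and 3 together *Fkbp6* was called (2.14, limma adjusted p = 0.0224), and *Piwil1* had 1.34 (0.0943) and *Tdrd5* -1.05 (0.097). On leaving out each of the 12 lines in turn, the calls of *Fkbp6*, *Piwil1* and *Tdrd5* were kept in 11, 8 and 10 fits. XX and XY lines overlapped for *Fkbp6*, with 85.5 in BC XX 3 against 170 in CB XY 3. The median of the 18 was 0.25 over all lines, -0.03 in the BC cross and 0.23 in the CB cross. By limma 0 of the 18 were called in the BC cross, where 5.7% of all genes were. In the CB cross 4 were called higher and 1 lower, where 3.57% of all genes were called. Over all lines, called genes of this pathway thus lay in both directions, 3 of 18 where 5.21% of all genes were called.

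**Figure D4:**
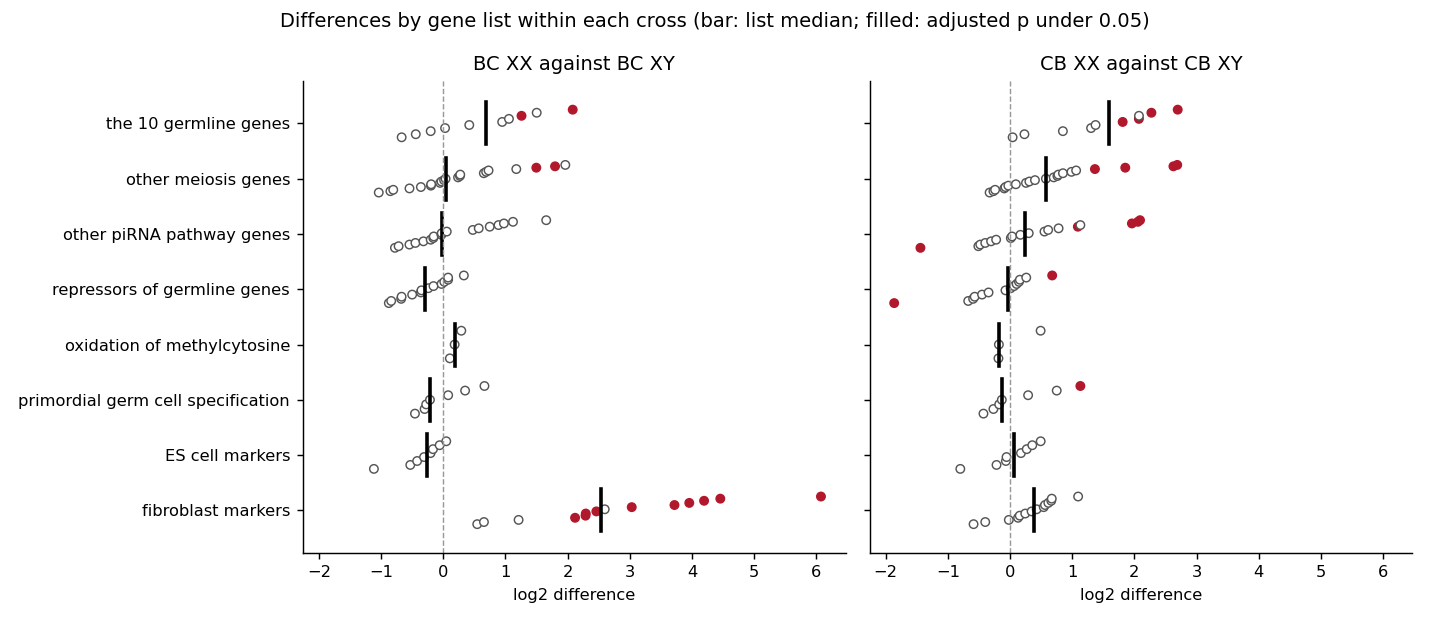
Log2 difference of XX against XY lines in the BC cross (left) and the CB cross (right) for each gene of 8 lists, 1 point per gene, filled where the limma adjusted p was under 0.05, with a bar at the list's median. The medians of the 10 germline genes, *Asz1* included, were 0.68 and 1.59, and those of the fibroblast markers were 2.53 in the BC cross and 0.39 in the CB cross.

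Of 14 repressors of germline genes, *Dnmt3b* and *Dnmt3a*, the de novo DNA methyltransferases, were called lower in XX lines over both crosses and 0 were called higher, where 5.21% of all genes were called in either direction. *Dnmt3b* had 5027, 9968 and 6195 in BC XX lines and 3923, 2815 and 4403 in CB XX lines. It had 16937, 16179 and 6451 in BC XY lines, 15534, 11760 and 12820 in CB XY lines, and 8456 and 16879 in BC XO lines. The log2 difference was -1.35 (SE 0.29, limma adjusted p = 0.0171). It was -1.37 and not called without CB XY 2 and 3 together (limma adjusted p = 0.0673). The lowest XY line was BC XY 3, and BC XO 1 lay within the range of the XX lines. *Dnmt3a* fell by 0.62 on the log2 scale (SE 0.16, limma adjusted p = 0.0442), and without CB XY 2 and 3 it had -0.73 (limma adjusted p = 0.0687). Its call was kept on leaving out 4 of the 12 lines in turn. *Dnmt3l*, the cofactor of both, had -0.73 (limma adjusted p = 0.0655), *Uhrf1*, which brings the maintenance enzyme to replicated DNA, -0.42 (limma adjusted p = 0.203) and *Dnmt1*, that enzyme, -0.21 (limma adjusted p = 0.337). The median of the 14 repressors was -0.15.

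Within crosses, *Dnmt3b* was called lower in CB XX lines (-1.86, limma adjusted p = 0.0138) and had -0.84 in BC XX lines (limma adjusted p = 0.18). The CB difference was -2.09 without CB XY 2 and 3 (limma adjusted p = 0.112). Another of the 14 repressors, *Rnf2*, was called higher in CB XX lines by limma. It had 4376, 4050 and 3746 there, against 2254, 2567 and 2797 in CB XY lines. In that cross 7 of the repressors had positive and 7 negative differences, with a median of -0.03, where 3.57% of all genes were called. *Prdm14*, a regulator that represses *Dnmt3* genes and specifies primordial germ cells, had 0.90 over all lines (limma adjusted p = 0.0629) and was called higher in CB XX lines (1.13, limma adjusted p = 0.0328). These were 1.03 (limma adjusted p = 0.106) and 1.21 (0.213) without CB XY 2 and 3, and with cross as a covariate the former was called (limma adjusted p = 0.0113). Its value of 1434 in CB XX 1 stood beside a shift of 0.31 for chromosome 1 as a whole in that line. *Prdm14* was also fitted with chromosome levels removed, and the values of that fit are not given here. None of the 7 genes of primordial germ cell specification, the 3 Tet genes that oxidise methylcytosine or the 8 ES cell markers was called over all lines. By limma 5.21% of all genes were called there, and 3544 had an unadjusted p under 0.05. At that share a count of 0 in lists this short says little. How the levels of these enzymes bear on the germline genes was not tested.

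**Figure D5:**
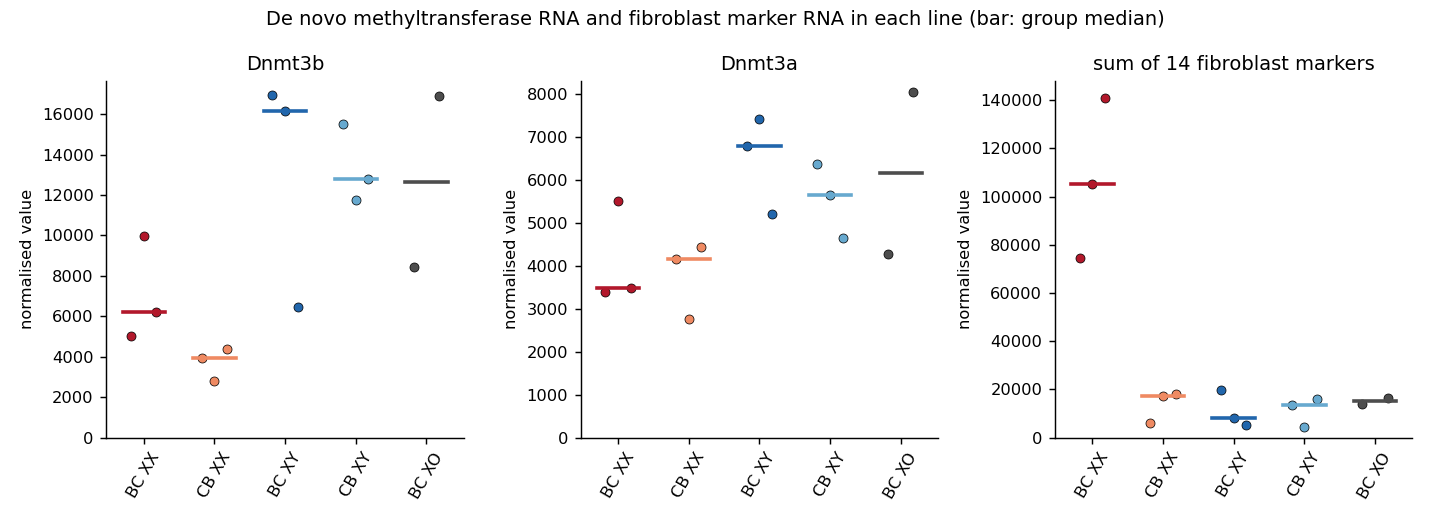
Normalised values of *Dnmt3b* (left) and *Dnmt3a* (middle) and the sum of 14 fibroblast markers (right) in each line by group, 1 point per line, with a bar at the group median. *Dnmt3b* lies at or under 9968 in XX lines and at or above 11760 in XY lines other than BC XY 3 (6451), and the fibroblast sum is at least 74435 in BC XX lines and at most 19562 elsewhere.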

How the data were processed

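RNA was measured in 14 ES cell lines as strand-specific total RNA libraries, 1 per line. The authors aligned the reads to mm9 and used TopHat2 and Cuffdiff, per the submitters' processing notes. They deposited a table of signal, a read value per gene scaled to a common depth, in which columns sum to 28150946 to 30657803 while a read is worth 0.407 to 2.46. Because the values are scaled, no count test was run on them. Between 98.9% and 99.3% of low values were whole multiples of a line's step, within 0.1 of a step. Depth and read floors rest on that step and cover counting error only.

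Values were taken as log2(value + 5). All lines were compared for genes with a value of 10 or more in at least 6 lines, and a model of 5 groups was fitted for genes at 10 or more in at least 2 lines. Left out were 15 genes whose value was 0 throughout a group but 100 or more elsewhere. Tests were made with limma 3.58.1 in R 4.3.3 (moderated statistics with a variance trend, two-sided, Benjamini-Hochberg adjustment over all genes tested, threshold 0.05). The steps were tested on simulated data. Tables and plots used Python 3.11.15 with numpy 2.4.6, pandas 2.3.3 and matplotlib 3.10.9.

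The 10 genes and all lists were chosen with earlier results of these data known. Named besides the 10 genes were up to 4 called genes per list and direction, the Dnmt genes, *Uhrf1* and *Prdm14*, the Y-linked genes, and the 5 genes nearest in profile to *Dazl* and to the mean of the 10. *Nxf2* was described further after its values were seen. CB XX lines carry the numbers of their columns, which could not be matched to the numbers in the labels. The study prepared libraries in batches, but the labels do not say which line was in which, so batch was not modelled. Lines of a group come from separate embryos, with 1 library each. Alternatives were other pseudocounts, filters and thresholds, quantile normalization, covariates for cross and fibroblast level, removal of chromosome levels, a replicate block, and the omission of lines.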

Additional observations from a re-analysis of the deposited data

Results flagged for a closer look

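In 6 of 20 sets of 6 XX or 6 XY lines, the highest line stood apart from the others, in that its gap to the next line, as a share of the whole range, passed Dixon's critical value for 6 values. Chance flags about 1 in 20 such sets where values are normally distributed, and the sets share the same lines. These are values as deposited, and on the log2 scale used for the tests 0 of the 20 sets passed, with gap shares of 0.433 to 0.57 for these 6. CB XX 2 stood apart in the XX lines for *Dazl*, at 3178 against 1562 in the next line, and for *Tex101*, at 24.4 against 7.73. BC XY 3 stood apart in the XY lines for 4 genes. *Sycp3* had 895 there against 402 in the next line, and *Mael* had 253 against 86.5. *Tex101* had 21.4 against 6.65, and *Slc25a31* had 56.9 against 24.7.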

How the results depend on the processing

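No difference of the germline genes that passed the threshold changed direction under the alternatives run. Differences that did not pass it could change sign, such as those over all lines of *Ddx4* (-0.19 to 0.04 on leaving out each line) and *Sycp3* (-0.45 to 0.08). The counts of called genes over all lines, in the BC cross, in the CB cross, for XX against XO, for XO against XY, between crosses and for the interaction were 797, 927, 581, 758, 1, 2605 and 12. Of the germline genes 4, 2, 4, 3, 0, 0 and 0 were called. At a threshold of 0.01 the counts were 183, 195, 114, 37, 0, 545 and 0, with 2, 1, 1 and 1 germline genes in the first 4. Without CB XY 2 and CB XY 3 together they were 313 over all lines (2 germline genes), 133 in the CB cross, 425 for XX against XO, 478 between crosses (1 germline gene) and 2 for the interaction. The fibroblast covariate left 9 genes in the BC cross (0 germline), 56 for XX against XO (0 germline), 0 for XO against XY and 183 between crosses. Removing chromosome levels left 483 over all lines and 250 in the CB cross, and cross as a covariate gave 1697 over all lines. Without a filter there were 411 for XX against XO, 4 for the interaction and 1 germline gene in the BC cross, and a filter at 30 gave 0 for XO against XY. A pseudocount of 1 left 1 germline gene in the BC cross, a pseudocount of 20 gave 0 for XO against XY and 21 for the interaction, and quantile normalization called 1 germline gene between crosses. The cause of these changes was not tested.

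Leaving out each line in turn gave 410 to 1746 genes over all lines (2 to 5 germline genes), 229 to 1144 in the BC cross (1 to 3), 145 to 653 in the CB cross (1 to 6), 5 to 1093 for XX against XO (0 to 4), 0 to 2 for XO against XY (0 to 0), 1217 to 3656 between crosses (0 to 1) and 0 to 25 for the interaction (0 to 0). Where BC XO was left with 1 line, that line was assumed to vary like the other groups. The replicate block gave 1129 genes in the BC cross (2 germline), 332 for XX against XO (2) and 1 for XO against XY (0). Same-numbered BC XX and BC XY lines correlated at -0.172, 0.254 and -0.055, and lines of unlike number at -0.175 to 0.155. With 3 lines per group this cannot decide whether the numbers pair the lines. No block could be fitted with CB XX lines, whose columns carry no number of the labels. Count tests on whole reads were not run, since whole reads were not recovered. Depth limits *Asz1* and *Tex101*, each at or under 3 reads in 7 lines.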

Other observations

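Markers of cells like the 2-cell embryo were low in most lines. *Zscan4c* had 49.4, 14.7 and 9.82 in BC XX lines and at most 4.44 in the other lines. *Zscan4f* had 39.9, 8.55 and 12.8 in BC XX lines and at most 2.68 elsewhere. Both passed the filter on low values only through the BC XX lines, so that no test of them is given, and they were named after their values were seen. Over all XX and XY lines 0 of the 2 markers of this list that were tested and 0 of 6 primitive endoderm markers were called. By limma 5.21% of all genes were called there, and 3544 had an unadjusted p under 0.05. At that share a count of 0 in lists this short says little.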
